A study of Homo sapiens with 16 samples.

Results

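Neural and glial identity genes were followed across 3 established human cancer cell lines as a list of 43 genes that mark neural stem cells, astrocytes, the oligodendrocyte lineage and neurons. A gene was represented by the array row annotated to it alone, and by the row with the highest mean where it had more than 1 such row. The list was chosen with earlier results of these data known, so its counts beside all genes are descriptions and not tests. Of the 43 genes 42 had a row, among 18417 genes in the whole series. The 26 whose row lay above the median of an array on at least 2 arrays were tested, among 12978 genes tested in all. TUBB3, the neuronal beta-tubulin, is not analysed here because its row names other genes as well.

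These genes belong to a developmental sequence. Transcription factors of the SOX, OLIG, NKX and NFI families set up neural stem cells and glial progenitors, which then give rise to astrocytes, oligodendrocytes and neurons with their own cytoskeletal, adhesion and synaptic proteins. Glioblastoma cells often express genes of several of these lineages, while a colorectal carcinoma line has an epithelial origin and serves here as the non-neural line.

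Total RNA of 16 growing cultures was measured on 1 array each, in lines that differ in STAG2, which encodes a cohesin subunit and lies on the X chromosome. In H4, labelled glioblastoma, the STAG2-mutant parental cells and the non-recombinant clones 10 and 12 formed the deficient group, and the post-Cre knock-in clones 8-1, 8-3 and 88-1 the corrected group. In 42MGBA, also labelled glioblastoma, the deficient group held the mutant parental cells and the pre-Cre knock-in clones 53 and 92, and the corrected group the post-Cre clones 53-1, 53-7 and 92-6. In the colorectal cancer line HCT116 STAG2 was wild-type in clones 24 and 27, which are non-recombinant, and knocked out in clones 7 and 21. No culture was treated. Every group is made of a few clones or a parental line, 8-1 and 8-3 come from 1 parent clone, as do 53-1 and 53-7, and a difference between groups cannot be told apart from a difference between these clones. P-values measure only the spread between such cultures. By their names the corrected 42MGBA clones derive from the deficient clones 53 and 92, and the fit of all 16 arrays leaves this link out.

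Array medians were 6.23 to 6.30 on the log2 scale in H4 and 6.24 to 6.29 in HCT116, but 5.00 to 5.05 in 42MGBA. The 42MGBA arrays are therefore on another scale, and gene levels in this line were compared with the others only by percentile. This is the percentile of a row among the 33297 rows of its array. Differences between STAG2 groups were taken on the log2 scale within a line, also where these differences were compared between lines. Within a line the arrays correlated over all rows at r of at least 0.986, and no pair held identical values. STAG2 was lower in deficient than in corrected H4 arrays by 2.19 (adjusted p = 2.37e-05) and in HCT116 knockouts by 2.44 (adjusted p = 0.000115). In 42MGBA it differed by -0.30 (adjusted p = 1), so its row gives no check on the 42MGBA labels. Adjusted p-values are from limma, over all genes tested, with a threshold of 0.05.

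The labelled cell types were set against markers of other cell types. The epithelial and colorectal list had a median percentile of 74.1 in HCT116, against 45.7 in H4 and 43.6 in 42MGBA, over 15 genes with a row. EPCAM, an epithelial adhesion molecule, stood at percentile 97.0 in HCT116, 21.7 in H4 and 26.3 in 42MGBA, and CDH1, the epithelial cadherin, at 80.6, 22.0 and 25.0. Only part of the list separated the lines. Of its 15 genes 7 stood above percentile 75 in HCT116, 2 in H4 and 1 in 42MGBA. The intestinal genes CDX1, VIL1, LGALS4 and CEACAM5 overlapped between HCT116 and H4 arrays, and KRT20 was lower in HCT116 than in 42MGBA. The mesenchymal list ran the other way, with a median of 84.9 in H4, 97.9 in 42MGBA and 44.0 in HCT116 over 10 genes. Haematopoietic and endothelial lists lay low in each line, with medians from 25.2 to 39.3. A percentile also reflects how bright a probe set is by itself. CDX2, an intestinal transcription factor, stood at percentile 59.2 in H4, 69.3 in 42MGBA and 68.5 to 71.7 in the HCT116 arrays. A row near the middle of an array is thus not by itself a sign of expression.

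The astrocyte marker GFAP was at a like level in H4 and in the colorectal line, and several other glial genes were among the dimmest rows in every culture. GFAP, the intermediate filament that defines astrocytes, was at 6.26 on average in the 6 H4 arrays and 6.24 in the 4 HCT116 arrays, a difference of 0.02 (95% interval -0.14 to 0.18). Its percentile was 49.8 in H4, 45.6 in 42MGBA and 49.5 in HCT116. AQP4, the astrocyte water channel, FABP7, the fatty acid binding protein of radial glia, and PTPRZ1, a receptor phosphatase of glial progenitors, lay under the lower quartile on all 16 arrays. S100B, a calcium-binding protein of astrocytes, and NRCAM, an adhesion molecule of axons, did so on 14. No detection calls were used here, so values this low may be background.

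The 42 genes lay below the typical gene of the arrays in each line. Their median percentile was 44.7 in H4, 46.3 in 42MGBA and 40.1 in HCT116, against 58.6, 58.2 and 58.7 over all genes. In H4 4 of them stood above percentile 75 on average, in 42MGBA 8 and in HCT116 3, while 8, 9 and 11 stood under percentile 25.

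**Figure D1:**
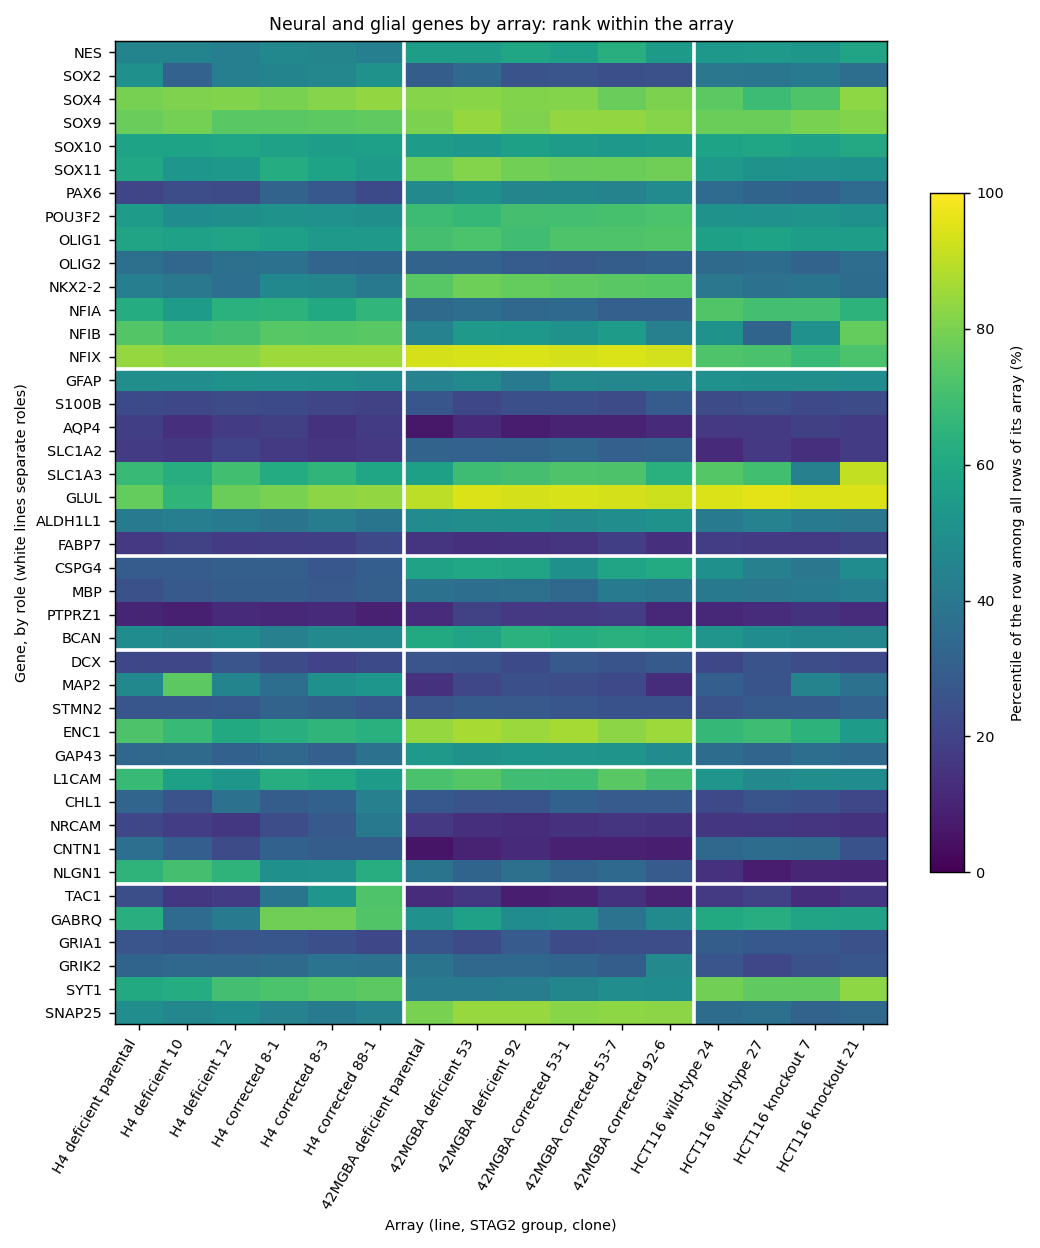
Percentile of each of the 42 genes (rows, grouped by role) among all rows of its array, for the 16 arrays (columns, grouped by line and STAG2 group), with the colour scale in percent. SNAP25 stands at 79.8 to 84.7 in 42MGBA against 31.9 to 48.9 elsewhere, and TAC1 is above percentile 25 only in the 3 corrected H4 arrays.

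Deficient and corrected H4 cells differed in a few synaptic and signalling genes. TAC1 and GABRQ were lower in the deficient cells by 6.03-fold and 4.66-fold, SYT1 was lower by 1.65-fold and NLGN1 was higher by 1.81-fold. Of the 26 tested genes 1 rose and 3 fell, against a background of 1.3% of all tested genes that rose and 2.0% that fell. Transmitters, receptors and synaptic vesicle genes gave all 3 falls, among 4 tested of the 6 with a row. The list was chosen with earlier results of these data known, so these counts are no test of a synaptic pattern. The 12 tested neural stem and transcription factor genes gave no call, nor did the 3 astroglial, the 2 oligodendroglial and the 3 cytoskeletal genes.

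TAC1 encodes the precursor of substance P and neurokinin A, peptide transmitters of sensory and brain neurons, and lies on chromosome 7. GABRQ, on the X chromosome, encodes the theta subunit of the GABA-A receptor, the chloride channel opened by the inhibitory transmitter GABA. The 250 bases before the RefSeq start of each gene (GRCh38.p14, plus strand) are shown because these genes gave the largest changes in H4. Capitals mark matches on either strand to 4 motifs: the E-box CANNTG read by bHLH factors such as those of the OLIG family, the GC box GGGCGG, the TATA box TATAAA and the CRE core TGACG.
TAC1, chr7:97731836-97732085: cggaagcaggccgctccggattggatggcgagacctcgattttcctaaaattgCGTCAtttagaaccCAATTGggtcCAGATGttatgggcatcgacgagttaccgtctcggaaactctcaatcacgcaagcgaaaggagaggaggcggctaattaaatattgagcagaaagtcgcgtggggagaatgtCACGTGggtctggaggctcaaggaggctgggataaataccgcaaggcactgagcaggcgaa
GABRQ, chrX:152637645-152637894: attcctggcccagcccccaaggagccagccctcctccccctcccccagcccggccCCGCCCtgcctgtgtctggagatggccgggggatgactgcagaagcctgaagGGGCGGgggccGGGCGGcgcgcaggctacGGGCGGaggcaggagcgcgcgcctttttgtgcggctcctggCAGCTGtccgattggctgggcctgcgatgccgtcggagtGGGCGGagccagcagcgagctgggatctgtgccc

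The windows differ in composition. That of TAC1 holds 3 E-boxes, whose first bases lie 183, 173 and 61 bases before the start, and 1 CRE core at 197. That of GABRQ holds 5 GC boxes, at 195, 143, 132, 114 and 34 bases before the start, and 1 E-box at 73. Neither holds TATAAA. Over 35116 RefSeq windows of the same length, 61.8% hold an E-box, 42.6% a GC box, 10.7% a TATA box and 21.2% a CRE core, and the median GC content is 58.0%, against 52.4% for TAC1 and 73.2% for GABRQ. A match of letters is a description and not a site in use.

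TAC1 was at 4.46, 3.81 and 3.93 in the H4 parental cells and clones 10 and 12, and at 5.57, 6.46 and 7.93 in the corrected clones 8-1, 8-3 and 88-1. All corrected arrays were above all deficient arrays, and the corrected clones themselves spread over more than 2 log2 units, with 88-1 the highest. The mean was 4.06 ± 0.34 (SD, n = 3) against 6.66 ± 1.19 (SD, n = 3), a difference of -2.59 (SE 0.39, adjusted p = 0.00292). In the deficient arrays TAC1 lay under the lower quartile, so the size of the difference is uncertain. Its row lay above the array median only in the corrected clones 8-3 and 88-1. TAC1 was thus tested only through the group where it is high. In such bulk RNA fewer cells that express a gene and less RNA per cell cannot be told apart. In HCT116 TAC1 was at 3.60 to 4.08 and in 42MGBA at percentiles 8.44 to 16.4, low in every culture of both lines.

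GABRQ was at 7.17, 5.21 and 5.66 in the deficient H4 arrays, in the same order, and at 8.37, 8.38 and 7.96 in the corrected arrays. The groups did not overlap, and the parental cells stood between the deficient clones and the corrected clones. The difference was -2.22 (SE 0.36, adjusted p = 0.0045). Its SD was 1.03 (n = 3) in the deficient and 0.24 (n = 3) in the corrected group. In HCT116 GABRQ was at 6.80 to 7.08, and in 42MGBA at percentiles 38.2 to 57.4.

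SYT1 encodes synaptotagmin 1, the calcium sensor of synaptic vesicle release. It was at 7.02, 7.06 and 7.69 in deficient and 7.80, 8.01 and 8.13 in corrected H4 arrays. The highest deficient array, clone 12, was close to the lowest corrected one. The difference was -0.72 (SE 0.18, adjusted p = 0.0399).

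NLGN1 encodes neuroligin 1, a postsynaptic adhesion molecule that pairs with neurexins across the synapse. It was at 7.30, 7.74 and 7.30 in deficient and 6.30, 6.31 and 7.16 in corrected H4 arrays. The corrected clone 88-1 stood close to the deficient arrays, while 8-1 and 8-3, from 1 parent clone, were near each other. The difference was 0.85 (SE 0.22, adjusted p = 0.0472).

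These calls rest on the spread shared by all 3 lines. With the H4 arrays fitted alone 0 of the 26 genes passed by limma, with 8 at an unadjusted p under 0.05. TAC1 and GABRQ then had an adjusted p = 0.0863, SYT1 0.152 and NLGN1 0.173, and 34 genes passed in all in place of 429. TAC1 and GABRQ passed without any 1 of the 6 H4 arrays, with differences from -3.13 to -1.96 and from -2.80 to -1.82. SYT1 passed only without clone 12, and NLGN1 only without the parental cells or 88-1.

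**Figure D2:**
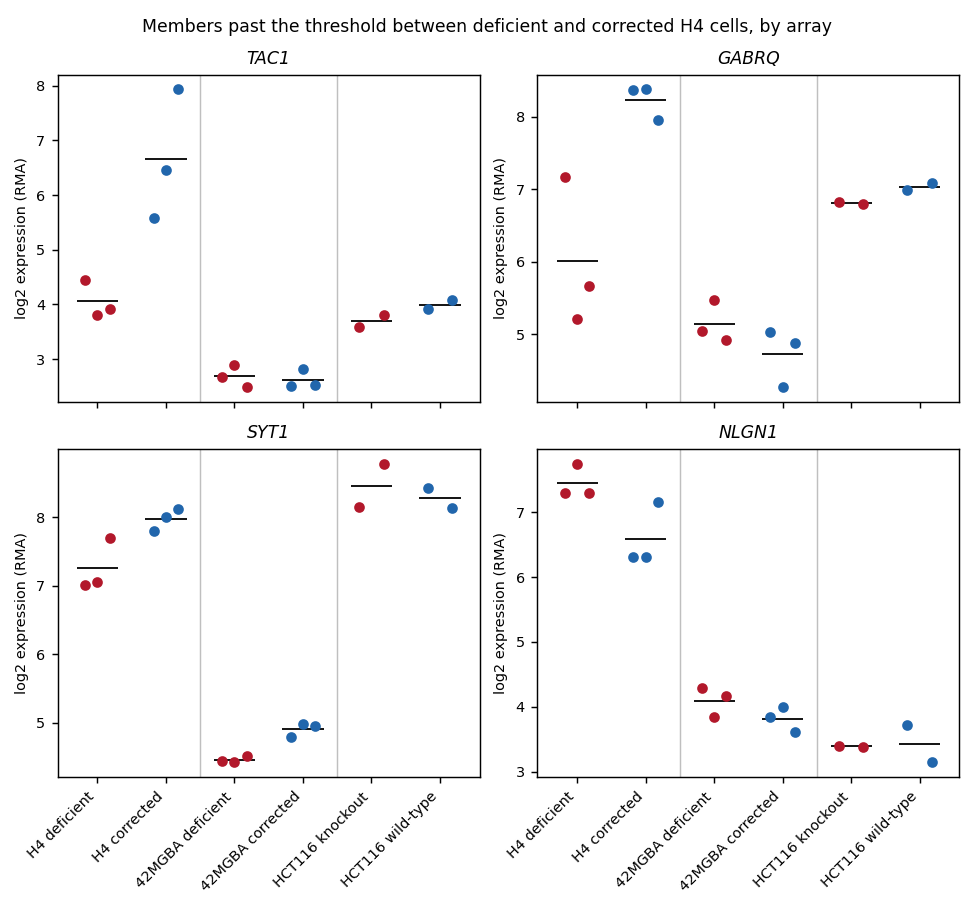
Log2 expression (RMA) of TAC1, GABRQ, SYT1 and NLGN1 in each of the 16 arrays, by line and STAG2 group, with bars at the group means and red for deficient, blue for functional STAG2. The corrected H4 arrays of TAC1 run from 5.57 to 7.93 and the deficient ones from 3.81 to 4.46; 42MGBA values are on their own scale.

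The mean of the mesenchymal markers differed a little between the H4 groups, and this mean was not tested. The mean percentile of the 10 mesenchymal markers was 79.2 to 82.0 in the deficient and 83.3 to 84.9 in the corrected arrays. COL1A1, a fibrillar collagen chain, was the 1 marker that passed, lower by 1.49 in the deficient cells (adjusted p = 0.00898). THY1 (-0.91) and ZEB1 (-0.63) did not pass, and SPARC (-0.04), ACTA2 (-0.06) and TWIST1 (-0.05) differed by little. The epithelial list stood at 44.5 to 48.0 in deficient and 45.4 to 48.5 in corrected arrays. The part of the mesenchymal difference in the values of TAC1, GABRQ, SYT1 and NLGN1 was not tested.

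GLUL and NKX2-2 came nearest to the threshold without passing it. GLUL, the glutamine synthetase by which astrocytes recycle glutamate, was at 8.22, 7.35 and 8.30 in deficient and 8.53, 8.77 and 8.89 in corrected H4 arrays. The groups did not overlap, but the difference of -0.77 (SE 0.24) did not pass (adjusted p = 0.0918). GLUL has 2 rows, and the one not used gave -0.59, so its level is uncertain. Whether the row used measures GLUL alone was not tested. NKX2-2, a transcription factor of oligodendrocyte progenitors, differed by -0.34 (SE 0.13, adjusted p = 0.183).

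NRCAM was not tested, since its row lay above the median on fewer than 2 arrays. It was at 4.22, 3.97 and 3.81 in deficient and 4.43, 4.76 and 5.66 in corrected H4 arrays. When no filter on dim genes was set, its difference of -0.95 passed (adjusted p = 0.0294) while that of NLGN1 did not (0.0509). In the deficient arrays NRCAM lay under the lower quartile.

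The median difference of the 42 genes in H4 was -0.04 against 0.02 over all genes, and 16 of 42 were positive, or 38.1%, against 54.5% of all genes. The deficient and corrected arrays did not overlap for 12 of the 42, where 18.0% of all genes with a row show this. SOX2, a factor of neural stem cells, differed by -0.45 (SE 0.24, adjusted p = 0.366), with clone 10 the lowest at 4.98 and the other H4 arrays at 5.80 to 6.38. GFAP (-0.03), POU3F2 (-0.01), a factor of neural progenitors, and MAP2 (0.65, SE 0.44), the dendritic microtubule protein, did not pass either.

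In 42MGBA none of the 26 genes passed between arrays labelled deficient and corrected (0 by limma, 1 at an unadjusted p under 0.05). Over all tested genes 0.0% passed. SYT1 had the smallest p. It was at 4.44, 4.43 and 4.52 in the parental cells and clones 53 and 92 and at 4.78, 4.97 and 4.96 in 53-1, 53-7 and 92-6, a difference of -0.44 (SE 0.18, adjusted p = 1). The groups did not overlap, as for 4 of the 42 genes and 9.25% of all genes with a row.

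The other named genes of 42MGBA differed by little. OLIG1, a bHLH factor of the oligodendrocyte lineage, differed by -0.15 (SE 0.08), GFAP by -0.16 (SE 0.09) and POU3F2 by -0.15 (SE 0.11). NFIA, a factor that switches neural stem cells to glial fates, differed by 0.20 (SE 0.16) and NLGN1 by 0.28 (SE 0.22), each with an adjusted p = 1. TAC1 differed by 0.06 (95% interval -0.77 to 0.90) and GABRQ by 0.42 (-0.35 to 1.18). The median difference of the 42 genes was 0.003 and 21 were positive, or 50.0%, against 40.6% of all genes.

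In HCT116 none of the 26 genes passed between knockout and wild-type clones (0 by limma, 2 at an unadjusted p under 0.05), and 0.131% of all tested genes did. The median difference of the 42 genes was -0.06, with 15 positive, against 47.7% of all genes. The groups did not overlap for 17 of the 42, where 38.5% of all genes with a row show this with 2 arrays against 2.

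NFIB, a partner of NFIA in glial and lung development, had the largest difference in HCT116. It was at 6.35 and 5.04 in the wild-type clones 24 and 27, and at 6.28 and 8.18 in the knockout clones 7 and 21. Clone 21 alone stood above the wild-type range. The difference was 1.54 (SE 0.47, adjusted p = 0.442). Without clone 7 NFIB differed by 2.48 (adjusted p = 0.0137), without clone 21 by 0.59 and without wild-type clone 27 by 0.88 (adjusted p = 0.973 for both). ENC1, an actin-binding protein of the early nervous system, differed by -0.55 (SE 0.24, adjusted p = 0.61) and SOX4, a factor of immature neurons and many carcinomas, by 0.51 (SE 0.24, adjusted p = 0.638). BCAN, the brain proteoglycan brevican, differed by -0.26, MAP2 by 0.95 and SOX9, a factor of gliogenesis and of colonic crypts, by 0.24.

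SLC1A3, the glutamate transporter GLAST of astrocytes, divided the knockout clones. It was at 7.99 and 7.66 in wild-type clones 24 and 27, at 5.82 in knockout clone 7 and at 9.72 in knockout clone 21. The knockouts lay on opposite sides of the wild-type clones, 15.0-fold apart, so that the group difference was only -0.06 (SE 0.77, adjusted p = 0.994). Without clone 7 the difference was 1.90 (adjusted p = 0.0202) and without clone 21 it was -2.01 (adjusted p = 0.0125). In these fits the lone knockout clone is assumed to vary like the other groups. SLC1A3 was named after its values were seen.

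**Figure D3:**
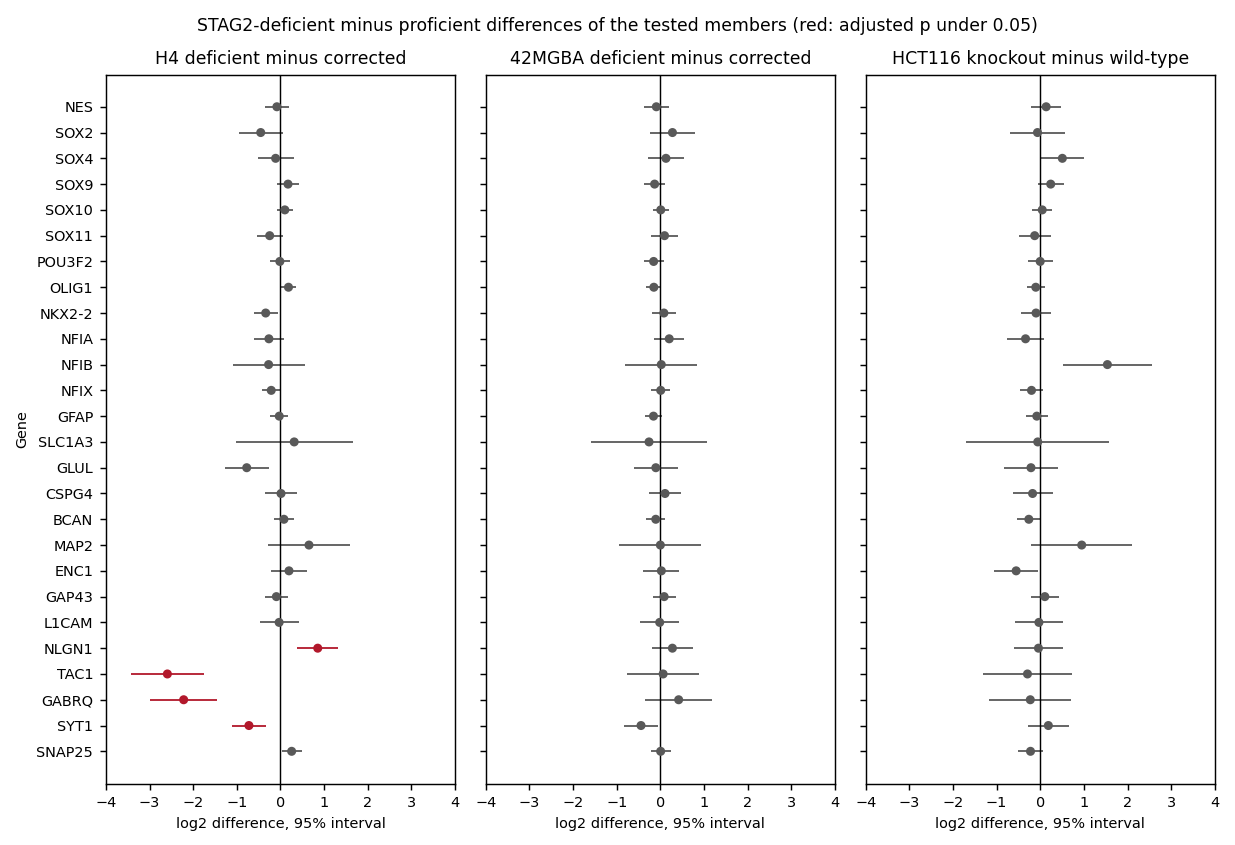
Deficient minus proficient log2 difference with its 95% interval for the 26 tested genes in H4, 42MGBA and HCT116, from the fit of all 16 arrays, with genes past the threshold in red. Red occurs in H4 alone, for NLGN1 on the higher side (0.85) and for TAC1 (-2.59), GABRQ (-2.22) and SYT1 (-0.72) on the lower side.

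The difference of the STAG2 contrast between lines was tested directly, on the log2 values. The interquartile range of the arrays was 3.15 to 3.20 in 42MGBA and 3.56 to 3.64 in H4. A log2 difference may therefore not have the same meaning in both lines. The deficient clones were non-recombinant in H4 and pre-Cre knock-ins in 42MGBA, so these contrasts are not built alike. For GABRQ the H4 difference minus the 42MGBA difference was -2.64 (SE 0.51, adjusted p = 0.0464), the 1 gene of the list past the threshold. Over all tested genes 0.254% passed in this comparison of lines. TAC1 gave -2.66 (SE 0.55, adjusted p = 0.0671) and OLIG1 0.33 (SE 0.11, adjusted p = 0.264). Of the 12 fits without 1 array of these lines GABRQ passed in the 1 without the H4 parental cells, with the adjusted p at 0.135 without 53-7.

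Between H4 and HCT116 no gene of the list passed (0 by limma, 8 at an unadjusted p under 0.05), and 0.293% of all tested genes did. TAC1 differed by -2.30 (SE 0.62, adjusted p = 0.125), GABRQ by -1.99 (SE 0.57, adjusted p = 0.141) and SYT1 by -0.91 (SE 0.28, adjusted p = 0.177). Between 42MGBA and HCT116 none passed either (0 by limma, 3 at an unadjusted p under 0.05, lowest adjusted p = 0.923), with 0.0231% over all tested genes. The contrasts between lines share arrays and are given side by side.

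Between H4 and HCT116 genes of several roles differed, in both directions. In H4 NLGN1 was 12.2-fold higher, TAC1 2.84-fold, NFIB 2.70-fold, NFIX 2.31-fold and MAP2 2.25-fold. GLUL, by the row used, was 4.97-fold and CSPG4 2.16-fold lower. Of the 26 tested genes 10 were higher and 6 lower in H4, where 28.2% of all tested genes were higher and 33.6% lower. The rows of NLGN1, TAC1 and MAP2 lay above the array median on H4 arrays alone, so these genes were tested only through that line. The median difference of the 42 genes was 0.002, against -0.05 over all genes. Line and everything that goes with it cannot be told apart.

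NLGN1 was the clearest of these. It was at 6.30 to 7.74 in the 6 H4 arrays (median 7.30) and at 3.72, 3.15, 3.40 and 3.39 in the HCT116 clones 24, 27, 7 and 21, where it lay under the lower quartile. No H4 array came near the HCT116 arrays, and the difference was 3.61 (SE 0.17, adjusted p = 1.02e-10). Its level in HCT116 makes the size of this fold uncertain. L1CAM, an axonal adhesion molecule, was higher by 0.69 (SE 0.17, adjusted p = 0.00205), and SNAP25, a membrane fusion protein of synaptic vesicles, by 0.78 (SE 0.09, adjusted p = 1.38e-06).

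Transcription factors went in both directions. NFIX was higher in H4 by 1.21 (SE 0.08, adjusted p = 3.79e-09), NFIB by 1.43 (SE 0.31, adjusted p = 0.00079) and SOX4 by 0.58 (SE 0.15, adjusted p = 0.0041), and NFIA was lower by 0.55 on the log2 scale. NES, the intermediate filament nestin of neural stem cells, was lower in H4, at 5.82 to 6.09 against 6.45 to 6.85 in HCT116, a difference of -0.65 (SE 0.10, adjusted p = 6.04e-05). SOX9 differed by -0.23 (SE 0.09, adjusted p = 0.0332). The lineage factors OLIG1 (-0.001, 95% interval -0.14 to 0.13), POU3F2 (-0.01, -0.19 to 0.17) and SOX10 (-0.06, -0.21 to 0.09) did not pass, nor did SOX2 (0.38, SE 0.19, adjusted p = 0.0884).

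GLUL was higher in the colorectal line. It was at 7.35 to 8.89 in H4 and 10.52 to 10.91 in HCT116, with no overlap and a difference of -2.31 (SE 0.19, adjusted p = 4.22e-08). The second row gave -1.79. Over all tested genes 47.1% did not overlap between H4 and HCT116. CSPG4, the proteoglycan NG2 of oligodendrocyte progenitors and pericytes, was at 4.70 to 4.95 in H4 and at 5.56 to 6.27 in HCT116, a difference of -1.11 (SE 0.14, adjusted p = 5.06e-06). SYT1, named for the synapse, was also lower in H4, with a difference of -0.75 (SE 0.14, adjusted p = 0.000269).

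The line difference was also taken separately over the arrays with and without functional STAG2. TAC1 was 2.66 higher in corrected H4 than in wild-type HCT116 arrays (adjusted p = 0.000121), but the arrays without functional STAG2 differed by 0.36 (adjusted p = 0.533). NFIB was 2.34 higher among the functional arrays (adjusted p = 0.000341) and 0.53 among the others (adjusted p = 0.341). For MAP2 (1.32 and 1.02) and SOX4 (0.89 and 0.27) the second comparison did not pass, with an adjusted p = 0.101 and 0.334. For SYT1 the first did not (-0.30, adjusted p = 0.229), and the second was -1.21 (adjusted p = 0.000148). NLGN1 (3.16 and 4.05), NFIX (1.21 and 1.20) and SNAP25 (0.54 and 1.02) passed in both. SOX9 passed in neither (-0.20 and -0.27).

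**Figure D4:**
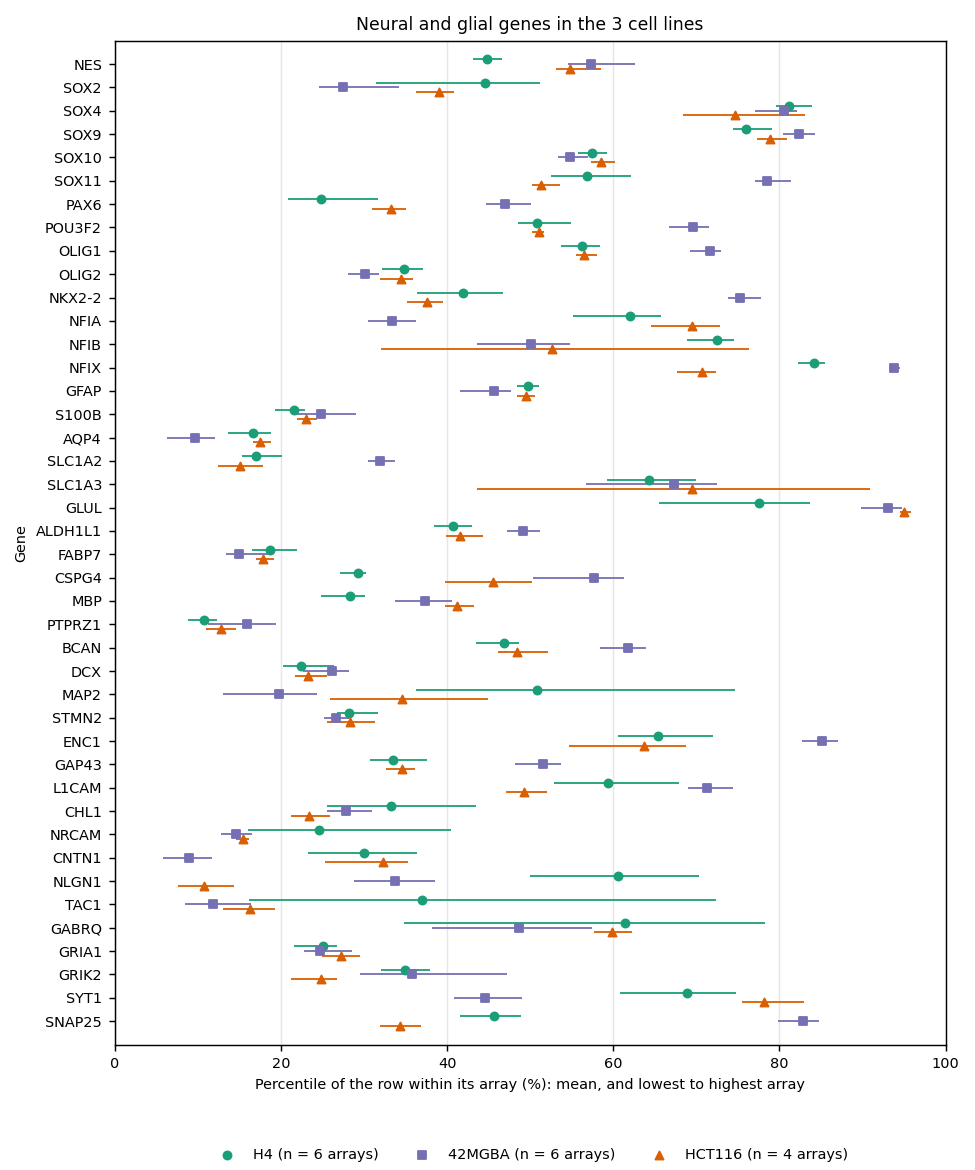
Mean percentile of each of the 42 genes among the rows of an array in H4 (circles, 6 arrays), 42MGBA (squares, 6 arrays) and HCT116 (triangles, 4 arrays), with lines from the lowest to the highest array, in percent. SNAP25 averages 82.8 in 42MGBA, 45.7 in H4 and 34.4 in HCT116, and the long lines of TAC1 in H4 and SLC1A3 in HCT116 show the clones that differ.

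By percentile, a synaptic and several transcription factor genes stood highest in 42MGBA. SNAP25 stood at 82.8 on average in 42MGBA, 45.7 in H4 and 34.4 in HCT116, and NKX2-2 at 75.3, 41.9 and 37.5. SOX11, a factor of immature neurons, stood at 78.5, 56.9 and 51.3. Against H4, 14 of the 26 genes were higher and 10 lower, where 39.8% of all tested genes were higher and 41.7% lower. Against HCT116, 14 were higher and 7 lower, with 39.8% and 41.8% over all genes. Since most genes of the arrays passed in both comparisons, these counts are no result about the list. The line and the scale of its arrays cannot be told apart.

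The 42MGBA values of SNAP25 were 79.8, 84.7 and 84.6 in the arrays labelled deficient and 82.4, 83.0 and 82.6 in those labelled corrected, and the highest value in any other line was 48.9. It differed from H4 by 37.2 points (SE 0.94, adjusted p = 3.44e-12) and from HCT116 by 48.5 points (SE 1.05, adjusted p = 5.79e-13). NKX2-2 differed by 33.3 points from H4 and 37.7 from HCT116, with 73.8 to 77.8 in 42MGBA and no more than 46.8 elsewhere. Neither gene overlapped between 42MGBA and the other lines. This held for 64.6% of all tested genes between 42MGBA and H4, and for 72.8% between 42MGBA and HCT116. The rows of SNAP25 and NKX2-2 lay above the array median on 42MGBA arrays alone, so both genes were tested only through that line.

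Other genes were higher in 42MGBA than in H4 by smaller steps. CSPG4 was higher by 28.4 points, SOX11 by 21.6, ENC1 by 19.7, POU3F2 by 18.9, GAP43, a growth cone protein, by 18.0 and GLUL by 15.4. The row of GAP43 lay above the array median on 42MGBA arrays alone, so GAP43 was tested only through that line. Against HCT116 the largest were SOX11 (27.2), NFIX (23.1), NLGN1 (23.0), L1CAM (22.0), ENC1 (21.5) and POU3F2 (18.6). POU3F2 and SOX11 thus stood higher in 42MGBA than in both other lines. Between H4 and HCT116, on the log2 scale, POU3F2 differed by -0.01 and did not pass. SOX11 was higher in H4 than in HCT116 by 0.38 and passed.

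The 8 genes with the largest differences among the 10 lower in 42MGBA than in H4 were MAP2 (-31.0 points), NFIA (-28.6), NLGN1 (-26.8), TAC1 (-25.1), SYT1 (-24.3), NFIB (-22.3), SOX2 (-17.1) and GABRQ (-12.7). The other two were GFAP (-4.16) and SOX10 (-2.62). Against HCT116 the 7 lower genes were NFIA (-36.1), SYT1 (-33.7), MAP2 (-14.8), SOX2 (-11.5), GABRQ (-11.1), GFAP (-3.93) and SOX10 (-3.70). The rows of MAP2, NLGN1, TAC1 and SOX2 lay above the array median on H4 arrays alone, so these genes were tested only through that line. SOX2 stood at 24.6 to 34.2 in 42MGBA, 31.4 to 51.2 in H4 and 36.3 to 40.8 in HCT116. MAP2 stood at 13.1 to 24.3 in 42MGBA, under the lower quartile of its arrays, against 36.3 to 74.6 in H4. Of the NFI family, NFIX averaged 93.9 in 42MGBA against 84.1 in H4, while NFIB averaged 50.1 against 72.4 and NFIA 33.3 against 62.0.

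Some genes of the list varied between the arrays of a line, taken over both STAG2 groups together. In H4 11 of the 42, or 26.2%, had a range over 1 log2 unit between the lowest and highest array, where 5.41% of all genes did. In 42MGBA there were 2, or 4.76% against 2.22%, and in HCT116 4, or 9.52% against 1.92%. The list was chosen with earlier results of these data known, so these shares are no result about the list. For TAC1, GABRQ, SYT1 and NLGN1 the H4 range includes their difference between the STAG2 groups. The 11 in H4 were TAC1, GABRQ, MAP2, NRCAM, GLUL, NLGN1, SOX2, CHL1, SYT1, L1CAM and CNTN1. In 42MGBA they were GABRQ and GRIK2, and in HCT116 SLC1A3, NFIB, MAP2 and SOX4.

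For MAP2 a single H4 culture stood apart, while for CHL1 and L1CAM the highest array lay nearer to the others. MAP2 was at 8.11 in clone 10 and at 5.39 to 6.46 in the other H4 arrays, a range of 6.57-fold. CHL1, a neural adhesion molecule related to L1CAM, was at 5.86 in clone 88-1 and at 4.54 to 5.44 in the others. L1CAM itself was highest in the parental cells, at 7.52 against 6.45 to 7.10.

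**Figure D5:**
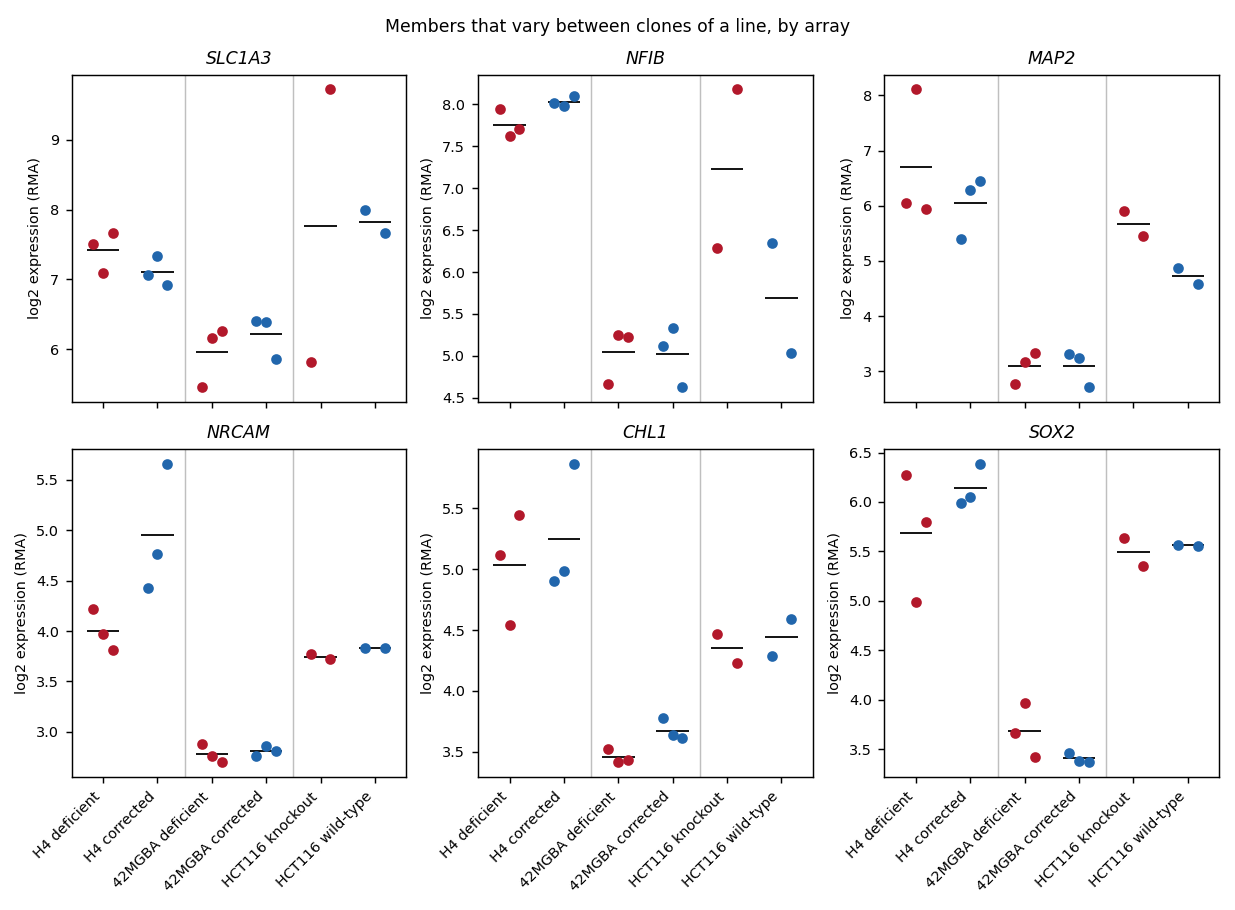
Log2 expression (RMA) of SLC1A3, NFIB, MAP2, NRCAM, CHL1 and SOX2 in each of the 16 arrays, by line and STAG2 group, with bars at the group means and red for deficient, blue for functional STAG2. SLC1A3 is at 5.82 and 9.72 in the HCT116 knockouts, and MAP2 reaches 8.11 in 1 deficient H4 array.

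Further neural genes outside the list were examined from 88 textbook genes, of which 80 had a row and 41 were tested. In H4 1 was higher and 2 were lower in the deficient cells, where 1.3% of all tested genes were higher and 2.0% lower. CLU, the secreted chaperone clusterin made by astrocytes and by many epithelia, was at 9.78, 10.68 and 10.24 in deficient and 8.98, 9.09 and 9.30 in corrected arrays (1.11, SE 0.17, adjusted p = 0.00364). PDGFRA, the receptor of oligodendrocyte progenitors and of mesenchymal cells, was at 7.22, 6.44 and 6.08 against 7.86, 7.48 and 8.47 (-1.36, SE 0.26, adjusted p = 0.0109). Neither gene overlapped between the groups. NCAM1, the neural cell adhesion molecule, differed by -1.25 (SE 0.32, adjusted p = 0.0487).

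None of the 41 passed in 42MGBA (0 by limma, 3 at an unadjusted p under 0.05) or in HCT116 (0 by limma, 5 at an unadjusted p under 0.05). SCG2, a secretogranin of neuroendocrine granules, had the largest difference in HCT116. It was at 5.98 and 6.60 in the wild-type and 5.22 and 5.03 in the knockout clones, with no overlap, and its difference of -1.17 (SE 0.22) did not pass (adjusted p = 0.0586).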

How the data were processed

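Gene expression was measured in 16 cultures on Affymetrix Human Gene 1.0 ST arrays, 1 array each. Per the submitters' processing notes, the authors used RMA and Affymetrix Expression Console to make the deposited log2 values. Versions, settings and build are not given in the sources used here. The range of 1.39 to 14.6 shows the log2 scale.

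Of 33297 rows, 19460 had 1 gene symbol, 1754 several and 12083 none. Symbols were updated by Entrez identifier to GRCh38.p14 names for 19429 rows, and 31 kept theirs. Genes above the array median on at least 2 arrays were tested. R 4.3.3 and limma 3.58.1 gave two-sided tests from 1 fit of 6 groups (lmFit, contrasts.fit, eBayes), with Benjamini-Hochberg adjustment over 12978 genes and a threshold of 0.05. Comparisons of gene levels in 42MGBA with other lines used percentiles within an array in a fit of the same form. Differences of the STAG2 contrast between lines used the log2 values. The groups came from the sample titles. The fit was tested on simulated data. The number of arrays limits the precision, and detection calls were not used here.

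The genes of the list, the further neural genes and the marker lists were chosen with earlier results of these data known. Named with full statistics were all genes of the list past the threshold between STAG2 groups and then the smallest p up to 6, up to 8 in each direction between lines, and up to 3 in differences of the STAG2 contrast. Alternatives were no filter, the mean of a gene's rows, quantile normalization, log2 or percentile scale, an intensity trend, each line fitted alone, arrays with or without functional STAG2, each array left out, no parental arrays, and clones of 1 parent clone averaged or used as a block. Promoter windows came from RefSeq on GRCh38.p14, and both genes sought were found.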

Additional observations from a re-analysis of the deposited data

Results flagged for a closer look

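GABRQ, the theta subunit of the GABA-A receptor, had a difference between STAG2 groups in H4 that differed from the one in 42MGBA. The H4 difference minus the 42MGBA difference was -2.64 (SE 0.51, limma adjusted p = 0.0464). GABRQ was lower in all 3 deficient than in all 3 corrected H4 arrays (-2.22), and in 42MGBA the arrays labelled deficient differed by 0.42 with overlapping groups. Without the filter on dim genes the adjusted p was 0.0504, with quantile normalization it was 0.0513, and it was 0.056 to 0.135 in 11 of the 12 fits that left out 1 H4 or 42MGBA array, lowest without 53-1 and highest without 53-7. Without the H4 parental array it was 8.17e-05.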

How the results depend on the processing

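Over 72 values of named genes and 1080 alternatives, 1016 kept their direction and their side of the threshold, 57 no longer passed, 7 newly passed and 0 reversed. For deficient against corrected H4, 0 genes of the list passed with the H4 arrays alone, 2 with clones of 1 parent clone averaged, and 2 to 3 without 1 array. The 2 genes without clone 10, 8-1 or 8-3 were TAC1 and GABRQ. For HCT116 0 to 2 passed without 1 array (SLC1A3 alone without clone 21, SLC1A3 and NFIB without clone 7). Of the differences in the STAG2 contrast between lines 0 passed without the filter, 0 with quantile normalization and 0 to 3 without 1 array. Between H4 and HCT116 9 genes passed over arrays without functional STAG2 in place of 16. GLUL in H4 passed without the parental arrays (-0.91, adjusted p = 0.0364). With the parent clone as a block in 42MGBA, 0 genes passed by limma, with 2 at an unadjusted p under 0.05. The cause of these changes was not tested. No paired analysis was possible because the labels give clone names and no replicate numbers shared by groups, apart from that block. Dim rows limit AQP4, FABP7, PTPRZ1, S100B and NRCAM, and TAC1 outside corrected H4 cells.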

Other observations

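Among the 41 further neural genes tested, 13 were higher and 12 lower in H4 than in HCT116, where 28.2% of all tested genes were higher and 33.6% lower, so the counts are near the background. UCHL1, a neuronal deubiquitinating enzyme, was at 11.78 in H4 and 6.13 in HCT116 on average, a difference of 5.64 (adjusted p = 1.5e-14 by limma), and VIM, the mesenchymal and glial filament vimentin, at 11.03 against 5.55. GJA1, the gap junction protein connexin 43 of astrocytes, was higher by 3.91, ZIC1, a cerebellar transcription factor, by 2.45 and MAP1B, an axonal microtubule protein, by 3.33. PROM1, the stem cell antigen CD133, was lower in H4, at 3.86 against 8.05, a difference of -4.19 (adjusted p = 3.05e-13). The row of PROM1 lay above the array median on HCT116 arrays alone, so PROM1 was tested only through that line. It lay under the lower quartile on all 6 H4 arrays, so the size of this difference is uncertain. The H4 and HCT116 arrays did not overlap for UCHL1 or VIM, as for 47.1% of all tested genes.

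By percentile, 21 of these genes were higher and 12 lower in 42MGBA than in H4, and 23 higher and 10 lower than in HCT116. Over all tested genes 39.8% were higher and 41.7% lower than in H4, and 39.8% and 41.8% than in HCT116, so most genes pass in any case. UCHL1 stood at 50.1 in 42MGBA and 98.1 in H4, and CLU at 55.9 against 89.6. PDGFRA, a receptor of oligodendrocyte progenitors, stood at 95.7 in 42MGBA, 63.8 in H4 and 31.5 in HCT116, and SCG2 at 64.0, 27.7 and 41.9. The NMDA receptor subunit GRIN2A stood at 54.5 in 42MGBA, 26.7 in H4 and 25.9 in HCT116. Its row lay above the array median on 42MGBA arrays alone, so GRIN2A was tested only through that line. These levels come with the scale of the 42MGBA arrays, which cannot be told apart from the line.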
